A study of Mus musculus with 64 samples.

Results

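Brain border macrophages are the resident macrophages of the meninges, the perivascular spaces and the choroid plexus, and 10 genes that mark them were followed in RNA from microglia isolates of the mouse hippocampus and frontal cortex. The members, Lyve1, Mrc1, Cd163, Pf4, F13a1, Cbr2, Stab1, Folr2, Ms4a7 and Cd209f, were taken by name from a table of 49671 genes. The set was chosen by measured day-night values, in which Lyve1 stood highest in day over night, so the day-night values of the members are given as a description and not as a test. The 64 libraries came from adult male C57BL/6 mice (C57BL6/N in the study's methods) with no transgene, kept on a reversed light-dark cycle and perfused before dissection, and the cells were collected on magnetic beads against CD11b. Each library carried a region (hippocampus or frontal cortex), a phase (day or night), one of the condition names Soci, Cogn, Ctr0 and Ctr1, and a replicate number, which gave 16 groups of 4 libraries. The study describes microglia taken in the light and in the dark phase, and the labels give day and night with no clock time. That day in the labels is the light phase is not stated there. The labels do not say what the condition names stand for. They also do not say whether a library was made from 1 animal, or whether hippocampal and cortical libraries shared animals, so p-values measure the spread between these libraries.

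Border macrophages carry CD11b as microglia do, and a sort on CD11b therefore collects both cell types. They differ from microglia in taking up material from blood and cerebrospinal fluid through scavenger and lectin receptors. Cd163 binds haemoglobin-haptoglobin complexes, Stab1 clears modified lipoproteins and other ligands, Mrc1 is the mannose receptor, Lyve1 binds hyaluronan and Cd209f is a C-type lectin. Folr2 binds folate, Ms4a7 is a 4-span membrane protein, Pf4 is a chemokine, F13a1 is the transglutaminase subunit of coagulation factor XIII and Cbr2 is a carbonyl reductase. Lyve1 is also a classical marker of lymphatic endothelium.

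The members were a minor part of the RNA beside microglial transcripts, and each was detected in all 64 libraries. Per kilobase of exon, the median level over all libraries was 82.0 CPM (counts divided by the TMM-scaled library total, per 1000000) for Stab1, 22.5 for Mrc1, 6.40 for F13a1, 6.14 for Pf4, 6.03 for Cbr2, 5.92 for Cd163, 4.59 for Lyve1, 1.89 for Folr2, 1.33 for Cd209f and 1.13 for Ms4a7. On the same per-kilobase scale the lowest of the 10 microglial markers was Sall1, at 108 CPM, so Stab1 lay just under the range of the microglial markers and the other members far under it. Cd209f, Folr2 and Pf4 rested on the fewest reads, with lowest counts of 14, 21 and 25 in a library, and Stab1 on the most, with at least 5939. Cd209f and Ms4a7 belong to families of similar genes and Folr2 overlaps Gm10602 on the opposite strand, whose median count of 56.5 was above the 45 of Folr2, so the counts of these members are less certain where reads could be assigned to either gene.

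The label of border macrophage markers was set against markers of lymphatic endothelium, dendritic cells, and monocytes and neutrophils. Microglia were not part of this check. Of the members Stab1 lay nearest to microglial levels, at 82.0 CPM per kilobase beside 108 for Sall1. How much of the Stab1 RNA came from microglia was not tested. Of the 6 lymphatic markers, Ccl21a was not among the genes counted. Mmrn1 was at 0 in 29 of 64 libraries with at most 13 counts in any, and Pdpn had a median of 9.5 counts, whereas Prox1 (median 322 counts), Flt4 (174) and Reln (111) were measured. Summed lymphatic marker levels ran from 32.2 to 54.9 CPM in hippocampal day libraries and from 35.8 to 63.4 CPM in hippocampal night libraries, and from 28.3 to 49.8 and from 27.6 to 52.9 CPM in the cortex. These ranges overlapped in both regions. The sum rested mostly on Prox1, Flt4 and Reln (median 20.4, 11.55 and 6.92 CPM), beside 0.642 for Pdpn and 0.0443 for Mmrn1. How much of this RNA came from lymphatic endothelium was not tested. By gene, 2 of 4 tested were lower and 0 higher in hippocampal day libraries (edgeR adjusted p under 0.05). In the cortex 1 was higher and 1 lower of 3 tested. Of all genes, 23.4% were called higher and 18.8% lower in hippocampal day libraries, and 20.6% and 21.3% in cortical ones. Of 6 dendritic cell markers Zbtb46 (median 198 counts), Itgae (77.5) and Flt3 (36) were detected in all 64 libraries, while Xcr1 was at 0 in 22, Clec9a in 5 and Ccr7 in 4. Of 8 monocyte and neutrophil markers Ccr2 (median 239 counts), S100a8 (56.5) and S100a9 (32) were detected in all 64, while Ly6g was at 0 in 16, Ly6c2 in 10 and Plac8 in 5. The monocyte and neutrophil markers summed to between 10.5 and 34.6 CPM by day and 10.6 and 34.0 CPM by night in the hippocampus, and to between 12.8 and 112 and between 13.6 and 59.4 CPM in the cortex.

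Total counts per library ran from 10156071 to 84472229 with a median of 15927536, and 3 hippocampal libraries, all of replicate number 4, had 62238045 or more. Levels of other cell types also moved with phase and region. Choroid plexus markers summed to between 1.65 and 897 CPM in hippocampal day libraries and to between 11.2 and 2844 CPM in hippocampal night libraries. All 6 were lower in day in the hippocampus, while 0 of 3 tested were called in the cortex. All 6 were also higher in hippocampus than in cortex, against 10.4% of all genes. Blood endothelial markers were lower in day (edgeR adjusted p under 0.05) for 5 of 7 genes in the hippocampus and for 0 of 7 in the cortex, at summed levels of 247 to 883 CPM by day and 495 to 1374 CPM by night in the hippocampus. Of 8 fibroblast markers 7 were tested in each region, and 5 were lower in hippocampal and 2 in cortical day libraries. Of all genes tested 18.8% were called lower and 23.4% higher in hippocampal day libraries, and 21.3% and 20.6% in cortical ones. Microglial markers were higher in day for 8 of 10 genes in the hippocampus and for 5 of 10 in the cortex, with summed levels of 15250 to 21510 CPM by day and 12940 to 17920 CPM by night in the hippocampus. Their part in the results for the members was not tested, and in bulk RNA more cells of a type and more RNA per cell cannot be told apart.

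Lyve1 (chr7:110850607-110863239, minus strand, GRCm38) separated the phases completely in both regions. In the hippocampus it measured 3.73 CPM in the lowest night library, 6.65 at the median and 12.1 in the highest, against 16.8, 28.1 and 40.9 CPM by day. In the frontal cortex the night libraries ran from 3.67 to 11.6 CPM with a median of 7.12, and the day libraries from 14.7 to 38.3 with a median of 27.5. All 16 day libraries therefore lay above all 16 night libraries in each region, and this held in 4 of 4 conditions in each. This contrast chose the members, and the share of all genes that separate the phases completely is not given. The separation is therefore only a description. The fitted day minus night difference was 1.96 ± 0.15 (SE) on the log2 scale in the hippocampus and 2.00 ± 0.16 in the cortex, n = 16 and 16, a ratio of 3.88 and 4.01.

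**Figure D1:**
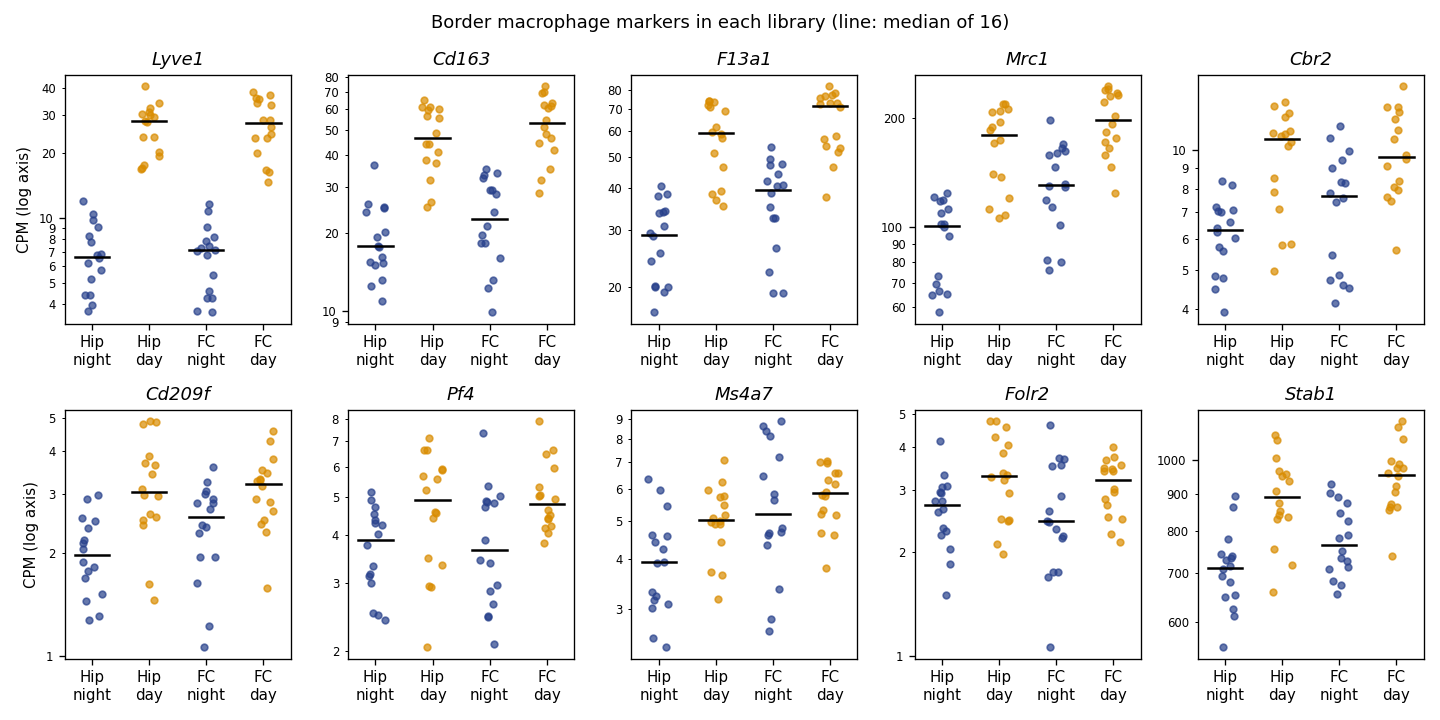
Level of each member in every library, in CPM on a log axis, for hippocampus (Hip) and frontal cortex (FC) by night (blue) and day (orange), with a line at the median of 16 libraries. Day and night did not overlap for Lyve1, where the highest night library was at 12.1 CPM and the lowest day library at 14.7 CPM, and overlapped for the other 9 genes. The share of all genes without overlap is not given.

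Cd163 (chr6:124304656-124330527, plus strand) was second. It ran from 10.9 to 36.5 CPM (median 17.7) in hippocampal night libraries and from 25.0 to 65.1 CPM (median 46.4) by day, and in the cortex from 9.84 to 35.4 (median 22.6) by night and 28.5 to 73.6 (median 53.0) by day. In each region 13 of 16 day libraries lay above every night library. The log2 differences were 1.33 ± 0.15 and 1.17 ± 0.16 in hippocampus and cortex.

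F13a1 (chr13:36867178-37050244, minus strand) and Mrc1 (chr2:14229392-14332057, plus strand) had intermediate differences. F13a1 ran from 16.8 to 40.6 CPM by night and 35.4 to 74.1 by day in the hippocampus, and from 19.2 to 53.6 and 37.7 to 82.0 CPM in the cortex, with log2 differences of 1.05 ± 0.13 and 0.80 ± 0.13. Mrc1 ran from 58.2 to 124 CPM by night and 106 to 219 by day in the hippocampus, and from 76.4 to 197 and 124 to 245 CPM in the cortex, with log2 differences of 0.89 ± 0.13 and 0.57 ± 0.12. For both genes 12 of 16 hippocampal day libraries exceeded every night library, and in the cortex this was so for 12 libraries with F13a1 and 8 with Mrc1.

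The other 6 members showed smaller differences with wide overlap. Cbr2 and Cd209f differed by 0.68 ± 0.13 and 0.68 ± 0.15 in the hippocampus and by 0.43 ± 0.15 and 0.35 ± 0.15 in the cortex. Pf4, Ms4a7, Folr2 and Stab1 differed by 0.39 ± 0.15, 0.38 ± 0.12, 0.37 ± 0.13 and 0.36 ± 0.06 in the hippocampus. In the cortex Pf4 differed by 0.36 ± 0.14, Stab1 by 0.28 ± 0.06, Folr2 by 0.22 ± 0.15 and Ms4a7 by 0.02 ± 0.14, and the cortical signs of Ms4a7 and Folr2 did not hold. Ms4a7 was above 0 in 8 of 16 alternatives (-0.29 to 0.45) and in 1 of 4 that left out a replicate number, and Folr2 in 13 of 16 (-0.08 to 0.54), with values of -0.26 and -0.07 under scaling to microglial markers. Stab1 had the narrowest spread of all members, with a coefficient of variation of 10.7% to 13.2% within region and phase, against 26.4% to 35.5% for Lyve1.

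By the threshold applied to all genes (edgeR, adjusted p under 0.05), 10 of 10 members were higher in hippocampal day libraries and 7 of 10 in cortical ones, with Cd209f, Folr2 and Ms4a7 not past it. Of all genes tested 23.4% were called higher in day in the hippocampus and 20.6% in the cortex, and since this contrast chose the members nothing is read from these counts. The split of all called genes moved with the scaling. In the hippocampus 3637 were higher and 2913 lower in day, but 262 and 4031 with library totals alone and 314 and 8731 with microglial markers as the scale, and in the cortex the splits were 3083 and 3183, 653 and 3412, and 248 and 8372. The median log2 difference of the members was 0.68 in the hippocampus and 0.39 in the cortex, beside 0.02 and -0.02 over all genes tested. Relative to the summed counts of 10 microglial markers in the same library, Lyve1 had a median of 1.46 counts per 1000 marker counts in hippocampal day libraries and 0.454 by night, and 1.38 and 0.452 in the cortex. Stab1 had 48.3 per 1000 by day and 49.4 by night in the hippocampus, and 47.4 and 52.5 in the cortex. With scaling to these markers the median log2 difference over all genes was -0.25 in the hippocampus and -0.29 in the cortex, and Lyve1 stood at 1.68 ± 0.14 and 1.74 ± 0.16.

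The members were also read relative to one another, as the ratio of each count to that of Mrc1 in the same library, which does not depend on how the library is scaled. For Lyve1 this ratio differed between the phases. There were 6.96 Lyve1 counts per 100 Mrc1 counts in the median hippocampal night library and 15.9 by day, and 4.89 and 13.8 in the cortex. The highest night and lowest day libraries were at 10.5 and 12.7 per 100 in the hippocampus and 7.92 and 9.19 in the cortex, so that 16 of 16 day libraries lay above all night libraries in each region. Here too the share of all genes with such a separation is not given.

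**Figure D2:**
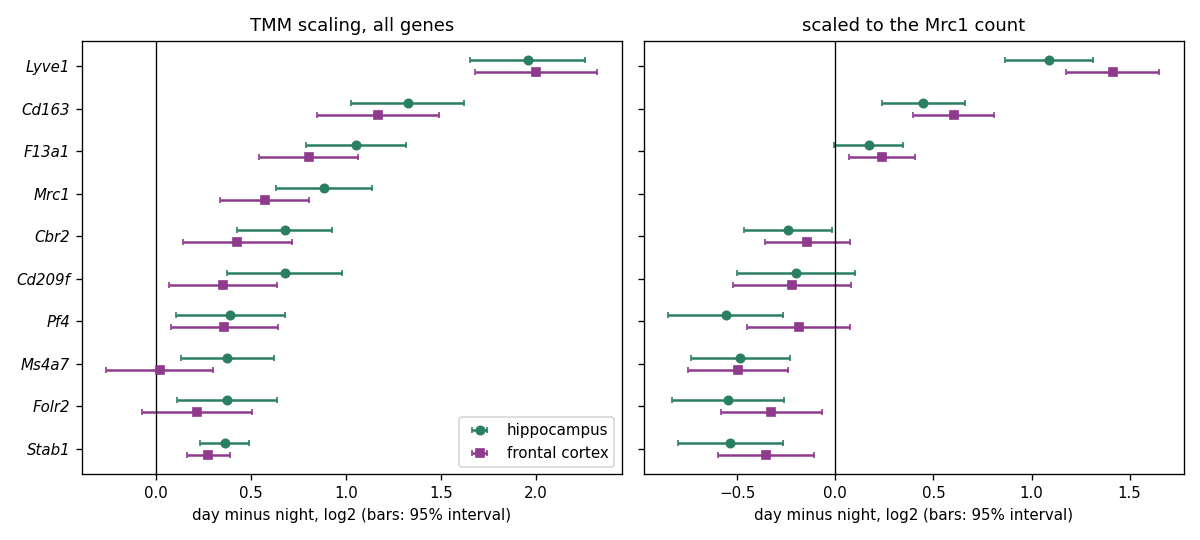
Day minus night difference of each member on the log2 scale with its 95% interval, in hippocampus (circles) and frontal cortex (squares), after TMM scaling over all genes (left) and after scaling to the Mrc1 count (right). Lyve1 lay at 1.96 and 2.00 on the left and at 1.09 and 1.41 on the right, where Cd163 and F13a1 were above 0 and the remaining genes below 0. Some of the intervals on the right included 0.

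Fitted after scaling to Mrc1, the day minus night log2 difference was 1.09 ± 0.11 for Lyve1 in the hippocampus and 1.41 ± 0.12 in the cortex. Cd163 stood at 0.45 ± 0.11 and 0.60 ± 0.11 and F13a1 at 0.17 ± 0.09 and 0.24 ± 0.09. The remaining members had values below 0. The intervals, 1.96 SE on each side, included 0 for Cd209f in each region and for Pf4 and Cbr2 in the cortex. That of F13a1 in the hippocampus also included 0. Under this scaling the median over all genes tested was -0.87 in the hippocampus and -0.64 in the cortex. A value below 0 is therefore not particular to these members. Ms4a7 stood at -0.48 ± 0.13 and -0.50 ± 0.13, Folr2 at -0.55 ± 0.15 and -0.33 ± 0.13, Stab1 at -0.53 ± 0.14 and -0.35 ± 0.12, and Pf4 at -0.56 ± 0.15 and -0.19 ± 0.13. Cbr2 and Cd209f lay closer to 0, at -0.24 ± 0.11 and -0.20 ± 0.15 in the hippocampus and -0.14 ± 0.11 and -0.22 ± 0.15 in the cortex. With Pf4 in place of Mrc1 as the reference, the hippocampal values of Cbr2 and Stab1 were 0.26 and 0.0028. With the summed members as the reference that of Cbr2 was 0.16. That sum is mostly Stab1, whose median was 844 CPM beside 143 for Mrc1, the next highest. The value of Lyve1 stayed between 1.01 and 1.54 in the hippocampus and between 1.36 and 1.63 in the cortex over 7 alternatives.

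Within groups the levels of the members varied together, a measure that the day-night values do not contain. After the mean of each of the 16 groups was taken off, Pearson r between pairs of members over 64 libraries ran from 0.25 (Stab1 and Folr2) to 0.96 (Mrc1 and F13a1) with a median of 0.65, and 45 of 45 pairs were positive. The points share library preparation and depth, and the values are a description. Each member's median r with all other tested genes lay between -0.03 and 0.04, and its r with the summed microglial markers between 0.09 and 0.38.

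Mrc1 correlated most with F13a1 (r = 0.96, Spearman rho = 0.96), then Cd163 (0.88 and 0.88) and Lyve1 (0.87 and 0.88). Without the 2 libraries farthest from the median of Mrc1 these r values were 0.96, 0.88 and 0.87. Within Mrc1's ranking of 16068 genes F13a1 was at place 1, Cd163 at 3, Lyve1 at 4, Cbr2 at 8 and Stab1 at 279. The slope of Lyve1 on Mrc1 deviations was 1.11 on log2 scales, that of Cd163 1.13, F13a1 1.07, Cbr2 0.91, Ms4a7 0.84, Pf4 0.80, Cd209f 0.80, Folr2 0.78 and Stab1 0.25. For Lyve1 r with Mrc1 was 0.84 among day libraries and 0.89 among night libraries, and 0.89 in the hippocampus and 0.86 in the cortex.

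**Figure D3:**
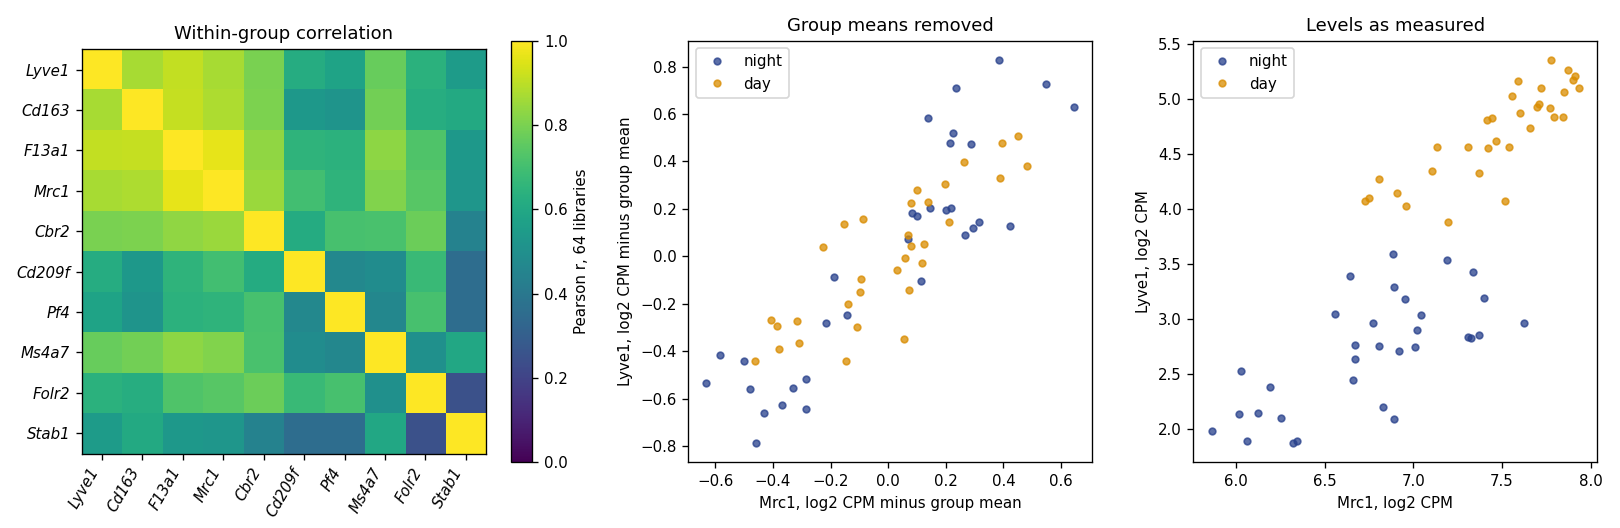
Left, Pearson r between members over 64 libraries with group means removed; middle, Lyve1 against Mrc1 as deviations from group means (log2 CPM); right, the same genes as measured (log2 CPM), night in blue and day in orange. Deviations of both phases fall on one line (r = 0.87), while as measured the day libraries lie above the night libraries in Lyve1 at the same Mrc1 level.

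Outside the members, the genes most like Lyve1 by this measure, among genes with an average of at least 2 on the log2 CPM scale, were F630028O10Rik (r = 0.79), Ms4a6c (0.75), Tgfbi (0.74), Arhgap19 (0.73) and Clec4a1 (0.73). For Mrc1 they were F630028O10Rik (0.92), Tgfbi (0.87), Ms4a6c (0.87), Cybb (0.86) and Lyz2 (0.85). Ms4a6c and Tgfbi stand in the list of further border macrophage genes, Cybb is a subunit of the phagocyte NADPH oxidase and Lyz2 is lysozyme. Hippocampal and cortical libraries with the same phase, condition and replicate number also deviated together for some members, with r over 32 label pairs of 0.66 for Cd163, 0.60 for Lyve1, 0.56 for F13a1 and 0.52 for Mrc1, and 0.15 for Folr2. Over all genes tested the median of this r was 0.08 and its 95th percentile 0.43.

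The day-night values that chose the members did not include the difference between regions, although earlier results of these data were known at the choice. In the main fit Mrc1, F13a1 and Ms4a7 were lower in hippocampal than in cortical libraries, and the other 7 members, Lyve1 among them, did not pass. Of 17 alternatives Mrc1 passed in 15, Ms4a7 in 14 and F13a1 in 8. Stab1, not past the threshold in the main fit, also passed in 8, and Cd163 in 1. Averaged over the phases the hippocampus minus cortex difference was -0.36 ± 0.09 on the log2 scale for Mrc1 (edgeR adjusted p = 0.0022), -0.35 ± 0.10 for Ms4a7 (adjusted p = 0.0077) and -0.28 ± 0.10 for F13a1 (adjusted p = 0.034), with 32 libraries per region. For Lyve1 it was 0.00 ± 0.11 (adjusted p = 0.99), with a 95% interval from -0.22 to 0.22. Of all genes tested 16.6% were called in either direction and 6.17% lower in the hippocampus, and 3 of 10 members were called, each lower. Over all genes 1675 were higher and 992 lower in the hippocampus, but 854 and 1685 with library totals alone, 1419 and 1722 without genes over 1% of counts, and 2562 and 276 with microglial markers as the scale, where Mrc1 alone of the members stayed past the threshold (-0.29, adjusted p = 0.017).

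Among the members not past the threshold, Stab1 stood at -0.11 ± 0.04 (adjusted p = 0.064) and Cd163 at -0.21 ± 0.11 (adjusted p = 0.20), and Cbr2, Cd209f, Pf4 and Folr2 lay between -0.14 and 0.06. The median of the members was -0.13 beside 0.00 over all genes. With libraries of the same phase, condition and replicate number in both regions treated as a block, 5 members and 3184 genes were called. The members were the same 3 and also Cd163 (-0.21 ± 0.07, edgeR adjusted p = 0.036) and Stab1 (-0.12 ± 0.04, edgeR adjusted p = 0.022). The call of F13a1 was lost without replicate 1, 2 or 3 (adjusted p = 0.11, 0.056 and 0.11), and those of Mrc1, F13a1 and Ms4a7 were lost within Soci and Cogn alone, where the differences were -0.35, -0.25 and -0.20. Choroid plexus markers were higher in the hippocampus for 6 of 6 genes and monocyte and neutrophil markers lower for 4 of 5 tested, and their part in these differences was not tested.

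**Figure D4:**
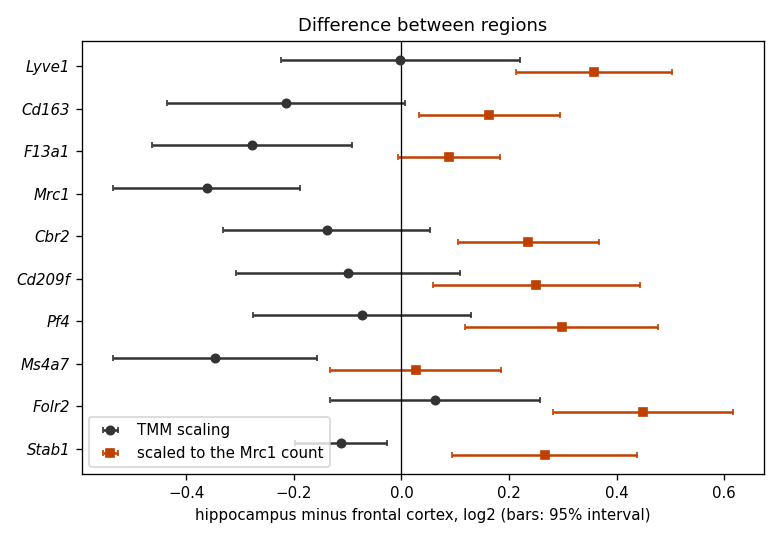
Hippocampus minus frontal cortex difference of each member on the log2 scale with its 95% interval, after TMM scaling over all genes (circles) and after scaling to the Mrc1 count (squares). Under TMM scaling Mrc1 at -0.36 and Ms4a7 at -0.35 lay farthest below 0 and Lyve1 at 0.00.

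Scaled to the Mrc1 count, 7 of 9 members were higher in the hippocampus (edgeR adjusted p under 0.05), from 0.16 ± 0.07 for Cd163 to 0.36 ± 0.07 for Lyve1 and 0.45 ± 0.09 for Folr2, whereas F13a1 (0.09 ± 0.05, adjusted p = 0.079) and Ms4a7 (0.03 ± 0.08, adjusted p = 0.76) did not pass. Under this scaling 84.1% of all genes were called and their median was 0.37, so the share of members called is near the background and nothing is read from it. With Pf4 as the reference 0 of 9 members passed (960 genes did), with differences of 0.11 for Lyve1, -0.21 for Mrc1, -0.10 for Cd163, -0.039 for Cbr2, -0.029 for Cd209f and -0.015 for Stab1.

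The day-night difference itself was compared between regions. No member passed (edgeR, 0 of 10, lowest adjusted p = 0.66, 0 members with an unadjusted p under 0.05), against 1.19% of all genes. The hippocampal minus cortical difference in change was -0.09 ± 0.22 for Lyve1, with a 95% interval from -0.53 to 0.35, and 0.31 ± 0.19 for Ms4a7, 0.28 ± 0.21 for Cd209f and 0.27 ± 0.18 for Mrc1. These intervals leave room for differences of up to 0.69, 0.70 and 0.62.

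**Figure D5:**
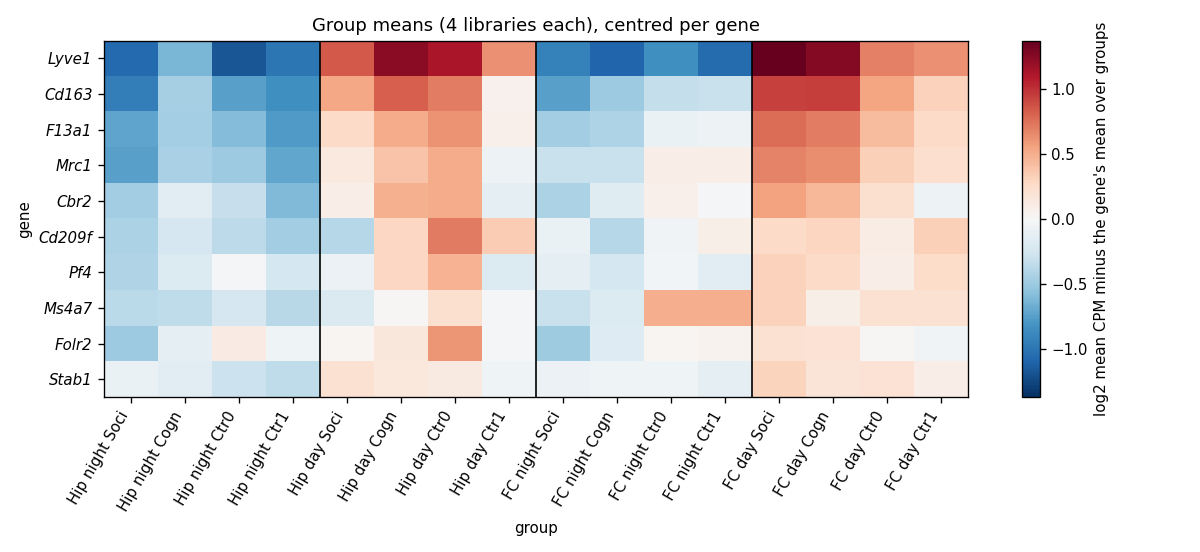
Mean level of each member in the 16 groups (4 libraries each) as log2 mean CPM minus the gene's mean over the groups, with red above and blue below. The 4 day groups of each region are red for Lyve1, and its lowest and highest group means were 5.98 CPM and 34.8 CPM.

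Over the 16 groups Lyve1 ranged from 5.98 ± 1.08 CPM (SD, n = 4) in hippocampal night Ctr0 to 34.8 ± 1.19 CPM in cortical day Soci. The hippocampal day means were 24.0 ± 6.78 CPM in Soci, 31.7 ± 7.51 in Cogn, 29.3 ± 3.89 in Ctr0 and 20.8 ± 5.23 in Ctr1, and the cortical ones 34.8 ± 1.19, 32.1 ± 6.67, 21.8 ± 4.24 and 20.7 ± 6.40. The night means stayed between 5.98 and 8.68 CPM in the hippocampus and between 6.32 and 7.48 in the cortex. By day in the cortex each Soci library (33.5 to 35.9 CPM) lay above each Ctr0 and Ctr1 library (14.7 to 28.5 CPM). This was seen in the values and not planned as a comparison, and the share of all genes that separate so is not given. The test of Lyve1 over the cortical conditions, which averages day and night, did not pass (edgeR adjusted p = 0.73). The test of a condition difference in its cortical day-night change did not pass either (edgeR unadjusted p = 0.12). Mrc1 ranged from 84.5 ± 27.6 CPM in hippocampal night Soci to 227 ± 23.3 in cortical day Soci.

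In the frontal cortex the day minus night difference of Mrc1 was 1.01 ± 0.20 (SE, log2, n = 4 and 4) in Soci and 1.02 ± 0.30 in Cogn, but 0.26 ± 0.19 in Ctr0 and 0.12 ± 0.21 in Ctr1. F13a1 had 1.31 ± 0.26, 1.21 ± 0.35, 0.55 ± 0.19 and 0.30 ± 0.25 in the same order, and Lyve1 2.41 ± 0.34, 2.41 ± 0.36, 1.57 ± 0.29 and 1.65 ± 0.29. Ms4a7 had 0.63 ± 0.21 and 0.29 ± 0.32 in Soci and Cogn and -0.26 ± 0.22 and -0.26 ± 0.23 in Ctr0 and Ctr1. In the hippocampus the Mrc1 values were 0.87 ± 0.34, 0.85 ± 0.26, 1.04 ± 0.21 and 0.64 ± 0.21, so this order of the conditions was not seen there. The test over the 4 conditions did not pass in the cortex (edgeR, 0 of 10 members, adjusted p = 1.0 for each), where the unadjusted p was 0.013 for Mrc1, 0.024 for Ms4a7 and 0.040 for F13a1.

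Of all cortical genes 0.00616% (1 of 16238) were called for a condition difference in change (DESeq2 called 9), and 603 had an unadjusted p under 0.05. In the hippocampus 0% of 16826 genes and 0 members were called (DESeq2 called 12 genes), 695 genes and 1 member, Cd209f (unadjusted p = 0.043), being under 0.05 before adjustment. For the conditions averaged over the phases, 0% of genes were called by edgeR in the hippocampus and 0% in the cortex, with 1090 and 1094 genes under an unadjusted p of 0.05 and 6 and 1 genes called by DESeq2. No member was called, and the lowest unadjusted p values in the hippocampus were 0.0080 for Cbr2 and 0.0086 for Folr2, each with an adjusted p of 0.67. Hippocampal Cbr2 ran from 7.40 CPM in Ctr1 to 11.5 in Ctr0 by day and from 5.30 in Ctr1 to 7.26 in Cogn by night, and in the cortex only Ms4a7 had an unadjusted p under 0.05 (0.032).

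A list of 38 further genes of border macrophages, which included antigen presentation, lectin and Ms4a genes, was read beside the members. In the hippocampus 22 of 36 tested were higher and 1, Gas6, was lower in day (edgeR adjusted p under 0.05), against 23.4% of all genes higher and 18.8% lower, and in the cortex 13 of 37 were higher and 0 lower, against 20.6% and 21.3%. The median log2 difference of the list was 0.39 and 0.16. The list was chosen with earlier results of these data known, and this contrast also chose the members. The day-night counts and adjusted p-values of the list are therefore a description, and nothing is read from them. With library totals alone 12 were higher and 2 lower in the hippocampus and 7 and 0 in the cortex, and with scaling to microglial markers 15 and 5 in the hippocampus and 6 and 6 in the cortex, where the list's median was -0.13. The 4 largest in the hippocampus were the lectin genes Cd209a (1.00 ± 0.16, adjusted p = 1.1e-05), Cd209b (0.89 ± 0.18, adjusted p = 0.00015) and Mgl2 (0.87 ± 0.16, adjusted p = 5.8e-05), and H2-Aa, an MHC class II chain (0.79 ± 0.17, adjusted p = 0.00031).

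In the cortex the 4 largest were Timd4, a phosphatidylserine receptor (1.01 ± 0.20, adjusted p = 0.00020), Colec12, a scavenger receptor (0.64 ± 0.12, adjusted p = 0.00013), the chemokine Ccl24 (0.60 ± 0.15, adjusted p = 0.0018) and Ms4a6c (0.55 ± 0.10, adjusted p = 3.8e-05). No gene of the list reached the day-night difference of Lyve1. The choice of the members rested on Lyve1 standing highest, so nothing is read from this. Between regions 16 of 37 were lower and 1 higher in the hippocampus, against 6.17% and 10.4% of all genes. With scaling to microglial markers 12 were lower and 1 higher, against 1.72% and 15.9%. The largest differences were those of the chemokine Ccl8 (-1.24 ± 0.23, adjusted p = 3.2e-05), H2-Aa (-0.76 ± 0.14, adjusted p = 2.6e-05), H2-Eb1 (-0.65 ± 0.13, adjusted p = 0.00017) and Mgl2 (-0.62 ± 0.12, adjusted p = 4.7e-05). The list's median was -0.18, and the 1 higher gene was again Gas6, which was named after its values were seen. None of 37 passed for a region difference in the day-night change.

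Upstream sequence was read for the members that moved together, from RefSeq promoter windows of 250 bases before and 50 after the start site (build GRCm38.p6), which held 9 of the 10 members (all but Lyve1). The 250 bases before the start are printed 5′ to 3′ for Cd163 and Mrc1, which had large day-night differences, and for Pf4 and Ms4a7, which had small ones, with capitals marking matches on either strand. They lie at chr6:124304401-124304650 (plus), chr2:14229164-14229413 (plus), chr5:90772185-90772434 (plus) and chr19:11334696-11334945 (minus, 1 of the windows of Ms4a7).
Cd163: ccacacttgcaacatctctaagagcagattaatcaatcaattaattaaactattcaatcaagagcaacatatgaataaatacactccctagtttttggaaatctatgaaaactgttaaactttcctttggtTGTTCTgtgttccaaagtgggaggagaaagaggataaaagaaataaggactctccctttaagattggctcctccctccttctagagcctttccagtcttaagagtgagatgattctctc
Mrc1: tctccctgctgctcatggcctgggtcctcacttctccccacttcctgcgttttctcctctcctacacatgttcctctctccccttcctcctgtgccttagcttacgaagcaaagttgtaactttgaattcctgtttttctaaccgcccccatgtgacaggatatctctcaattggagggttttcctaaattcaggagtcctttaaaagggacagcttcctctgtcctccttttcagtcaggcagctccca
Pf4: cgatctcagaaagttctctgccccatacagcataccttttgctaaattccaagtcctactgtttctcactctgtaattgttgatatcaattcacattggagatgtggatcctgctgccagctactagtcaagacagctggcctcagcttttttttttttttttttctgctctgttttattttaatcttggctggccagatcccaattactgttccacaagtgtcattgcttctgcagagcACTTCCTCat
Ms4a7: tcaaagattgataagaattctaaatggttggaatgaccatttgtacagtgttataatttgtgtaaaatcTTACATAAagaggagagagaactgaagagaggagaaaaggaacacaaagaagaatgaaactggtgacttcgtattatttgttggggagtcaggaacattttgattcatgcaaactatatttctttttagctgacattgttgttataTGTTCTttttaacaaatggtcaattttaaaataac

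The motifs searched on both strands were the glucocorticoid receptor half-site AGAACA and its palindrome, the E-box CACGTG, the ROR and REV-ERB element AGGTCA, the D-box TTATGTAA, the PU.1 core GAGGAAGT and the MAF half-site TGCTGA. In Cd163 the capitals mark AGAACA on the minus strand, in Pf4 the PU.1 core on the minus strand, and in Ms4a7 the D-box and AGAACA, both on the minus strand, while Mrc1 held none. Over the 12 member windows AGAACA was found in Cd163, Folr2 and Ms4a7 (19% of 32851 windows of all genes held it), the PU.1 core in F13a1 and Pf4 (3.2% of windows), the D-box in Ms4a7 (0.938%), and TGCTGA in Cbr2, Folr2 and Stab1 (19.5%). The E-box (7.15%), the ROR and REV-ERB element (16.3%) and the palindrome (0.00913%) were in none of the member windows. A match shows only that the letters are present, and both a member with a large difference and members with small ones held AGAACA.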

How the data were processed

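Gene counts of 64 libraries were used. The authors depleted ribosomal RNA, mapped the reads to GRCm38.p5 with STAR 2.7.3a, assigned them to genes with featureCounts of Subread 2.0.0, and deposited raw counts, not scaled by depth or gene length. The strand setting is not given in the sources used here. Symbols and coordinates came from GENCODE M21, which matched 49412 of 49671 genes. Members and lists were chosen with earlier results of these data known. Named genes were the members, the 4 largest called changes of the further list in each phase and region test, and the 5 genes most like Lyve1 and Mrc1; others are said to be chosen after their values were seen.

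Counts were scaled by TMM and tested after filterByExpr by quasi-likelihood F tests (edgeR 4.0.16, R 4.3.3), with Benjamini-Hochberg adjustment over all genes and a threshold of 0.05. SE is the log2 difference divided by the square root of F, and 95% intervals are 1.96 SE wide on each side. One fit per region gave day against night, 1 with 8 means the conditions, and 1 over both regions the region difference. Scaling by the Mrc1 count tested departures from Mrc1. Correlations used log2 CPM with a prior count of 2 and group means removed. In simulated counts 200 genes changed 2-fold were recovered in 199 cases for the hippocampal day-night fit and 197 for regions. For the region difference in change 187 were recovered, and 145 for the cortical condition difference in change. In the same order 12, 15, 10 and 6 unchanged genes were called. The changed genes lay above a level that Folr2 and Cd209f (median 2.92 and 2.65 CPM) did not reach. Smaller changes were not simulated in these fits, so recovery of such changes is not known. DESeq2 1.42.0, other scalings, filters and left-out replicates were alternatives. The least different of 96 replicate pairs had a chi-square per degree of freedom of 7.65, so each library counted once.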

Additional observations from a re-analysis of the deposited data

Results flagged for a closer look

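In 160 groups of 4 libraries (10 members in 16 groups) the highest or lowest library was set apart from the others by a gap past Dixon's 95% limit in 6 groups, and chance gives about 8. All 6 were in the frontal cortex. In night Ctr1, replicate 4 was low in both Lyve1 (4.26 CPM, others 7.09 to 7.26) and Mrc1 (119 CPM, others 158 to 165). In day Cogn, replicate 3 was low in Mrc1 (176 CPM, others 230 to 240). Night Cogn replicate 4 was high in Pf4 (7.35 CPM, others 2.08 to 2.86), day Soci replicate 1 was high in Stab1 (1131 CPM, others 974 to 996), and night Soci replicate 2 was low in Ms4a7 (2.65 CPM, others 4.35 to 4.70).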

How the results depend on the processing

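The Lyve1 day minus night difference stayed between 1.68 and 2.13 in the hippocampus and between 1.61 and 2.34 in the cortex over 16 alternatives each. Members past the threshold for day against night in the hippocampus numbered 10 in the main fit and 6 with library totals alone. There were 6 with scaling to microglial markers, 6 within Soci and Cogn, and 2 with replicate 4 alone, which leaves fewer samples. In the cortex the count of 7 became 4 with library totals and 3 with microglial markers. It was 4 within Ctr0 and Ctr1 and 0 with replicate 4 alone. Leaving out 1 replicate number gave 7 to 9 and 5 to 7. Of all genes 23.4% were called higher in hippocampal day libraries, against 1.69% with library totals alone and 2.02% with microglial markers. In the cortex these shares were 20.6%, 4.36% and 1.66%. Since this contrast chose the members, nothing is read from these counts. For the region difference the main fit called 3 members and 2667 genes. Microglial markers as the scale gave 1 member and 2838 genes, replicate 4 alone 0 and 0, and Soci and Cogn alone 0 and 1065. Leaving out 1 replicate number gave 2 to 4 members and 1322 to 3518 genes. Library totals alone brought 3 members (Cd163, Cbr2 and Stab1) and 3862 genes past the threshold for conditions in the hippocampus, where no other alternative called a member. Values within pairs of conditions and with log2 total count as a term were added after seeing the data.

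Relative to Mrc1 the region test called 7 members and 13520 genes. With Pf4 as the reference it called 0 and 960, and with the summed members, mostly Stab1, 3 and 6721. Leaving out 1 replicate number gave 3 to 7 members and 8838 to 13657 genes. Nothing is read from these member counts. With Pf4 as the reference Cd163 was -0.10, Cbr2 -0.039, Stab1 -0.015 and Cd209f -0.029 between regions, and with the summed members Cd163 was -0.055 and Ms4a7 -0.19. For day against night in the hippocampus Cbr2 was 0.26 and Stab1 0.0028 with Pf4, and Cbr2 0.16 with the summed members. The median within-group r of 0.65 stayed between 0.63 and 0.72 without 1 replicate number and was 0.59 in the hippocampus alone and 0.75 in the cortex alone. The cause of these moves was not tested.

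The pairing rule asked every pair to pass, so it cannot decide whether same-numbered libraries shared animals or a batch. By that rule replicate numbers were not taken to pair the libraries, since not every pair of same-numbered libraries had deviations correlated above 0.1. The median was 0.00 to 0.07 in the hippocampus (-0.01 for other numbers) and -0.02 to 0.20 in the cortex (-0.03 for other numbers), where numbers 1 and 3 had 0.20 and 0.15, with 17 and 15 of 28 pairs above 0.1. With the replicate block the counts were 10 and 7 members (6546 and 6505 genes) for day against night. There were 3 members (2937 genes) for region and 7 (13521 genes) relative to Mrc1. For conditions and for differences in change 0 members were called, and the median r was 0.69. With a block of phase, condition and number across regions (same-labelled libraries, median r of -0.01 over 32 pairs) the region count was 5, with 3184 genes. By member, deviations of same-labelled libraries correlated across regions at 0.15 (Folr2) to 0.66 (Cd163). The 95th percentile over all genes was 0.43. All-gene counts moved by over 1.5 times in several fits; for the region difference in change 191 genes became 15 without replicate 2, 48 without replicate 4, 92 without replicate 1, 78 with microglial markers, 7 within Soci and Cogn and 1 within Ctr0 and Ctr1. Without replicate 1 the hippocampal conditions called 328 genes. Without replicate 2 or 3 the region difference called 1322 and 1382 genes against 2667. Day against night called 4319 genes without replicate 1 in the hippocampus and 3941 without replicate 2 in the cortex, against 6550 and 6266.

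Depth limits Cd209f, Folr2 and Pf4 most, with as few as 14, 21 and 25 counts in a library.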
